A study of Mus musculus with 2 samples.

Results

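The distal end of mouse chromosome 8 was followed here as a run of neighbouring genes, from Crispld2 to the end of the chromosome in the gene order of the GRCm38.p6 assembly. A gene entered when a probe set named it alone, and it was represented by its probe set with the highest mean signal over the 2 arrays. It counted as measured when that probe set lay above the 40th percentile of its array, called the floor below, on at least 1 array. Of 107 such genes, 94 were measured and 13 were at the floor on both arrays, out of 13332 measured genes on the array. A further 2 genes of the stretch were left out by the rule. The members were chosen by their readings against the floor on these arrays, and the stretch itself was selected on the ratio between the same arrays. Its values are therefore a description, and no test was made on them.

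The arrays compared lung-recovered CMT-93-PM1 with parental CMT-93, a mouse rectal carcinoma line. For CMT-93-PM1, parental cells went into the tail veins of female C57BL/6 mice aged 6 weeks, and tumours seen in the lungs 8 weeks later were taken into culture. CMT-93 as obtained, not passed through a mouse, was the other group. Both lines were grown in the same serum-containing medium, and no further allele, drug or agent is named for either. Each line had 1 array, so no difference has a replicate check, and the culture, the labelling or the array cannot be told apart from the line. The labels do not say how many mice or tumours gave rise to CMT-93-PM1.

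Genes that lie side by side on a chromosome are mostly unrelated in function, and a stretch of this length holds housekeeping genes, tissue-restricted genes and silent genes together. Neighbours can nonetheless share features that act over distance, among them chromatin domains, start sites that face away from each other, and the number of copies of the chromosome segment they sit on. The arrays measured RNA, and DNA was not analysed here. The distal end of mouse chromosome 8 carries, among others, genes of the replication machinery (Cdt1, Gins2), of autophagy (Map1lc3b), of oxygen sensing (Egln1), of amino acid uptake (Slc7a5) and of epithelial polarity (Pard3).

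Median signals over all probe sets were 5.26 log2 on the lung-recovered array and 5.36 log2 on the parental array, and the median log2 ratio of all measured genes was 0.00. Of 9 listed intestinal epithelial carcinoma markers, 6 were above the floor on each array, with Krt8 at 12.54 log2 on the lung-recovered and 11.98 on the parental array. The differentiation markers Krt20, Vil1 and Lgals4 were at the floor on both. Of markers of cells that a lung tumour could bring along, 2 of 6 for fibroblasts, 2 of 5 on the array for leukocytes and 2 of 5 for endothelium were above the floor on each array. For lung epithelium it was 3 of 5 on the lung-recovered and 4 of 5 on the parental array. The summed linear signal was 124 on the lung-recovered and 139 on the parental array for fibroblast markers, and 144 lung-recovered and 148 parental for leukocyte markers. It was 732 lung-recovered and 493 parental for endothelial markers, and 189 lung-recovered and 251 parental for lung epithelial markers. The leukocyte gene Ptprc and the endothelial gene Pecam1 were at the floor on both arrays. The endothelial sum rested on Cdh5, at 9.30 on the lung-recovered and 4.21 on the parental array, and on Tek, at 3.43 on the lung-recovered and 8.57 on the parental array. In a culture read in bulk, fewer cells of a type and less RNA per cell cannot be told apart.

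Genes of the distal end were mostly higher in the lung-recovered line. Their median log2 ratio, lung-recovered minus parental, was 0.54, which is 1.45-fold, with quartiles at 0.02 and 0.74 and a range from -0.65 to 2.15. The quartiles of all measured genes were -0.23 and 0.29. Of the 94 members, 72 had a ratio above 0, or 76.6%, against 49.2% of all measured genes. A ratio below 0 was found for 22 members, or 23.4%, against 48.7% of all measured genes. At a fold of 1.2 or more, 57 members were higher, against a background of 26.5%, and 7 were lower, against a background of 21.8%. At 2-fold or more, 9 members were higher (background 4.42%) and 0 were lower (background 2.55%). These shares belong to the contrast that chose the stretch and are given for scale.

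**Figure D1:**
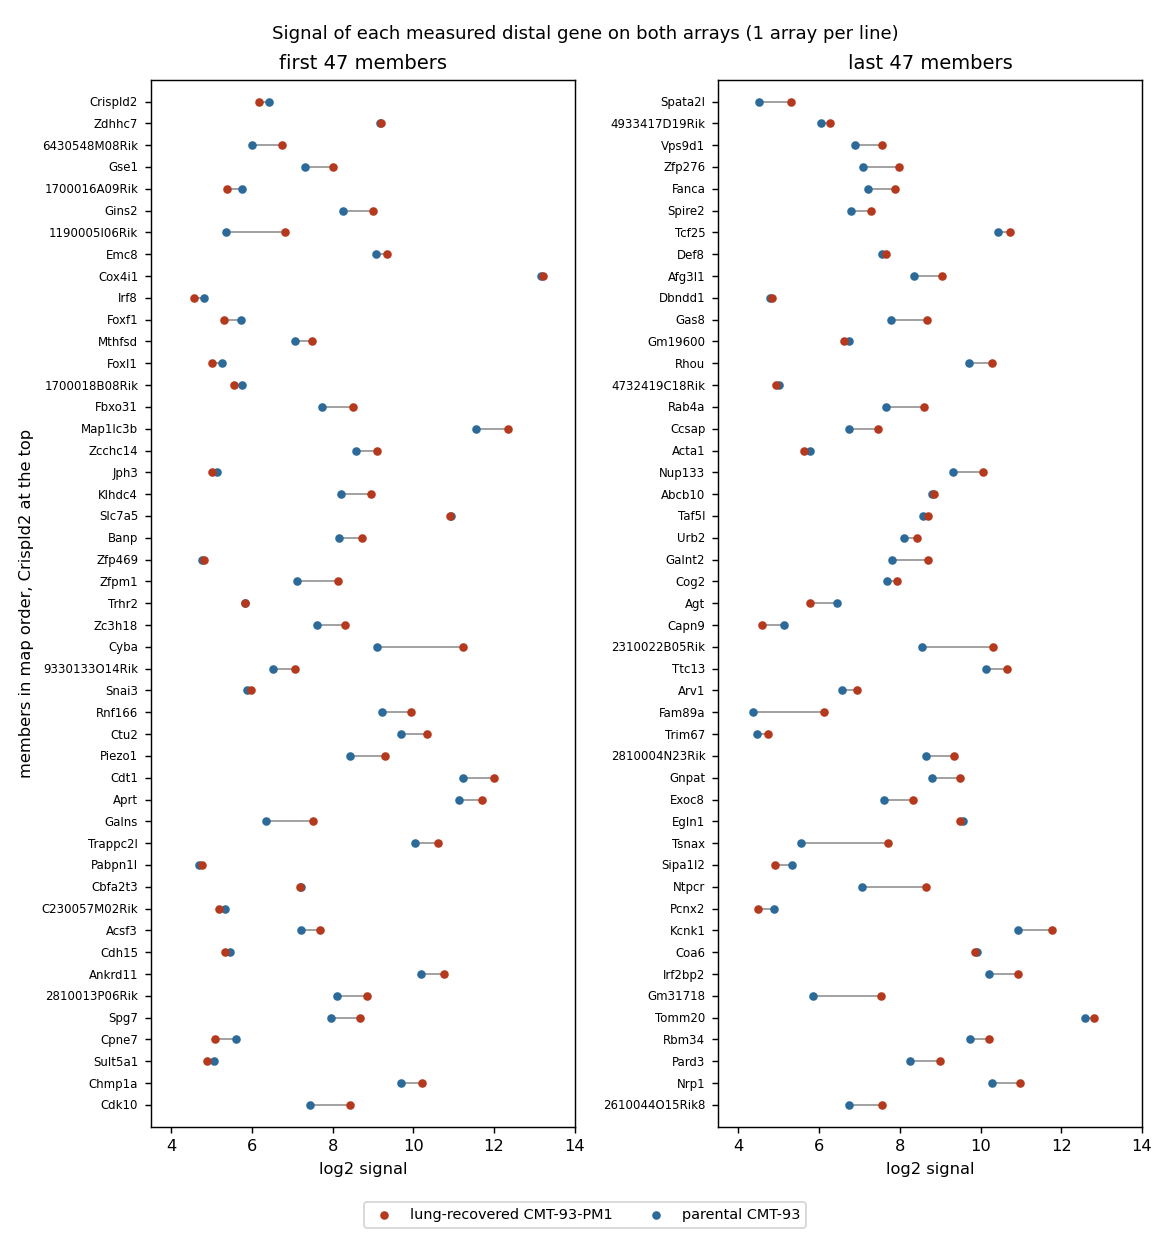
Log2 signal (x axis) of each of the 94 measured members, in map order from Crispld2 at the top left to 2610044O15Rik8 at the bottom right. Red points are the lung-recovered array and blue points the parental array, 1 array per line. The red point lies to the right of the blue one for most genes above about 7 log2, at much the same distance, while many dim genes show little separation or the opposite order.

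The median difference lay near 0 for the dimmest probe sets and was of similar size in the steps of signal above them. Among the 60 members with a mean signal of 7 log2 or more, a limit set after the values were seen, 56 had a ratio above 0, or 93.3%, against 56.0% of the 8306 genes of that signal on the whole array, and 4 a ratio below 0, against 43.0%. Their median ratio was 0.68, or 1.6-fold, against 0.06 for all genes of that signal. Of these 60 members, 48 were higher by 1.2-fold or more (background 31.0%) and 0 were lower by as much (background 20.2%). At 2-fold or more, 4 were higher (background 4.15%) and 0 lower (background 2.44%). Among the 34 members below 7 log2, 16 had a ratio above 0, or 47.1%, against 38.1% of all genes below that signal. A ratio below 0 was found for 18, or 52.9%, against 58.2%. The median of the 34 was -0.10, close to the -0.08 of all genes below that signal. At 2-fold or more, however, 5 of the 34 were higher, or 14.7% (background 4.85%), and 0 lower (background 2.73%). In finer steps, the median was -0.13 for 23 members under 6 log2, 0.68 for 28 members from 6 to 8, 0.68 for 28 members from 8 to 10, and 0.57 for 15 members at 10 or more. The corresponding medians over all measured genes were -0.09, 0.04, 0.07 and 0.05.

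**Figure D2:**
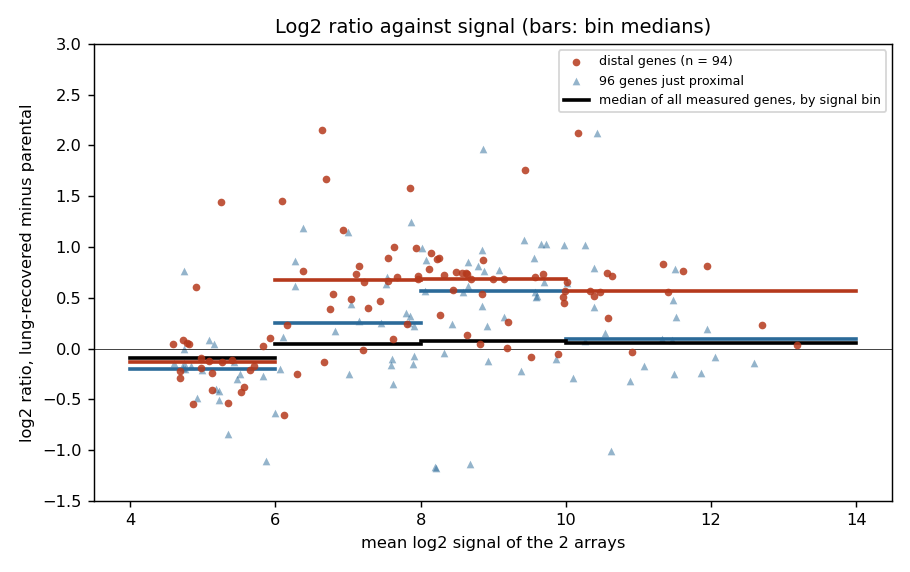
Log2 ratio, lung-recovered minus parental (y axis), against the mean log2 signal of the 2 arrays (x axis), for the distal genes (red) and the 96 genes just proximal of Crispld2 (blue). Horizontal bars are medians in signal bins, black for all measured genes. Above 6 log2 the distal medians lie between 0.57 and 0.68, above the blue and black bars, and under 6 log2 the bars lie together between -0.21 and -0.09.

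The ratios of the better-measured members lay close together. Of the 60 members of 7 log2 or more, 43 had a ratio between 0.4 and 1, or 71.7%. The share was 35.3% for the 68 proximal genes of that signal and 17.8% for all genes of that signal. These limits were chosen after the values were seen. The distance between the quartiles was 0.32 for these members, against 0.86 for the 68 proximal genes of that signal and 0.55 for all genes of that signal. The SD was 0.40 for these members, 0.62 for those proximal genes and 0.57 for all genes of that signal. Technical spread between probe sets of 1 gene had a median SD of 0.16 over 44 members with several measured probe sets and 0.18 over 6172 such genes of the array.

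**Figure D3:**
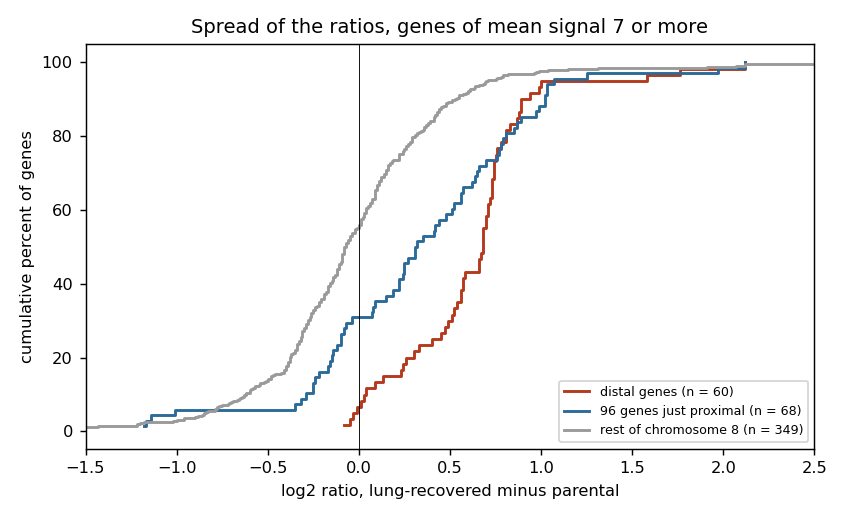
Cumulative percent of genes (y axis) by log2 ratio, lung-recovered minus parental (x axis, cropped at -1.5 and 2.5), for genes of mean signal 7 log2 or more. The red curve of the 60 distal genes climbs most steeply between about 0.4 and 1, to the right of the curves of the 68 proximal genes (blue) and of 349 genes from the rest of chromosome 8 (grey).

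Probe sets that did not choose the members give the same RNA a further reading on the same arrays, so they are no replicate. There were 79 further measured probe sets of members, with a median ratio of 0.53. All 41 of them with a mean signal of 7 log2 or more had a ratio above 0, with a median of 0.70, against 57.9% above 0 and a median of 0.09 for the 5246 further probe sets of that signal over all genes, while the 38 dimmer ones had a median of 0.25. In 38 of the 44 members with several measured probe sets, or 86.4%, all had the same sign, against 60.4% of such genes of the array. The exceptions were Ankrd11, Cbfa2t3, Egln1, Nrp1, Zcchc14 and Zfp276. The stretch was selected on this ratio, and probe sets of genes away from 0 share a sign more readily. Higher shares than over the array therefore follow in part from that choice and are given for scale.

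All listed genes of replication and genome upkeep that were measured were higher in the lung-recovered line. For this and the following lists, 76.6% of all members and 49.2% of all measured genes had a ratio above 0. Of members of 7 log2 or more, 93.3% were above 0, so the signs do not set a list of such genes apart. These 4 measured members had ratios from 0.67 to 0.99, and 0 reached 2-fold (background 4.42%). Cdt1, which licenses replication origins, read 11.99 log2 on the lung-recovered array and 11.23 on the parental array, 1.69-fold higher. Gins2, a subunit of the replicative helicase, read 9.0 on the lung-recovered and 8.27 on the parental array, 1.66-fold higher. Fanca, of the Fanconi anaemia DNA repair pathway, read 7.89 on the lung-recovered and 7.22 on the parental array, with a ratio of 0.17 by a dimmer probe set and 0.42 by the median of both. Cdk10, a cyclin-dependent kinase, had the highest ratio of the list, at 8.43 on the lung-recovered and 7.44 on the parental array.

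All 13 measured genes of membrane traffic and autophagy had ratios above 0, against 76.6% of all members and 49.2% of all measured genes. The ratios ran from 0.01 to 0.94, with a median of 0.51, and 0 reached 2-fold (background 4.42%). Map1lc3b, an Atg8 protein of the autophagosome membrane, read 12.35 on the lung-recovered and 11.54 on the parental array, with ratios of 0.81, 0.70 and 0.68 by 3 probe sets. Rab4a, a GTPase of endosome recycling, read 8.61 on the lung-recovered and 7.67 on the parental array, with ratios of 0.94 and 0.93 by its probe sets. Galnt2, which starts O-linked glycosylation in the Golgi, read 8.70 on the lung-recovered and 7.81 on the parental array. Exoc8 of the exocyst (8.32 on the lung-recovered, 7.61 on the parental array) and Chmp1a of the ESCRT machinery (10.21 lung-recovered, 9.70 parental) were higher by less, and the ratio of Exoc8 was 0.47 by the median over its probe sets. At the low end, the palmitoyltransferase gene Zdhhc7 read 9.19 on the lung-recovered and 9.18 on the parental array, and Def8 read 7.66 on the lung-recovered and 7.57 on the parental array.

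Of 5 measured genes of ribosome assembly and RNA handling, all 5 had ratios above 0 (76.6% of all members, 49.2% of all measured genes). The median was 0.66, and 1 passed 2-fold (9.57% of all members, 4.42% of all measured genes). That gene, Tsnax, encodes the partner of translin in RNA processing and had the highest ratio of the stretch. It read 7.71 on the lung-recovered and 5.56 on the parental array, 4.44-fold higher, while its other probe set was at the floor on both arrays. Ctu2, which takes part in tRNA thiolation, read 10.35 on the lung-recovered and 9.69 on the parental array. Nup133, a nuclear pore subunit, read 10.05 on the lung-recovered and 9.32 on the parental array, and its 6 probe sets had ratios from 0.15 to 0.91.

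The listed mitochondrial genes ran from no visible difference to nearly 3-fold. All 6 measured genes of the list had ratios above 0 (76.6% of all members, 49.2% of all measured genes). The median was 0.35, and 1 was past 2-fold (9.57% of all members, 4.42% of all measured genes). Ntpcr, a nucleoside triphosphatase, read 8.65 on the lung-recovered and 7.07 on the parental array, 2.99-fold higher, and 0.15 on the ratio scale by a dim probe set. Spg7, a subunit of an inner membrane protease, read 8.68 on the lung-recovered and 7.96 on the parental array, with a ratio of 0.08 by a dim probe set and 0.40 by the median of both. Tomm20, the import receptor of the outer membrane, read 12.82 on the lung-recovered and 12.59 on the parental array, and its 6 probe sets had ratios from 0.23 to 0.91. The respiratory chain gene Cox4i1, at 13.20 on the lung-recovered and 13.17 on the parental array, and the transporter gene Abcb10, at 8.84 on the lung-recovered and 8.80 on the parental array, differed by 0.04 log2 or less. Coa6, a cytochrome oxidase assembly factor outside the list, read 9.87 on the lung-recovered and 9.92 on the parental array, a ratio of -0.05.

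Among 14 measured genes of transcription and chromatin, 10 had ratios above 0 (76.6% of all members, 49.2% of all measured genes). The other 4 were below 0, and the median was 0.43. Zfpm1, a cofactor of GATA factors, was highest at 8.13 on the lung-recovered and 7.13 on the parental array, 2-fold higher. Irf2bp2, a transcriptional corepressor, read 10.94 on the lung-recovered and 10.20 on the parental array, with ratios from 0.74 to 1.30 by 4 probe sets. Ankrd11, a chromatin regulator, read 10.75 on the lung-recovered and 10.19 on the parental array, and its 7 probe sets ran from -0.41 to 1.22. Tcf25, the gene of this list with the highest mean reading, was at 10.73 on the lung-recovered and 10.43 on the parental array. Its 5 probe sets had ratios from 0.04 to 1.55. The fork head genes Foxf1 and Foxl1, known from gut mesenchyme, and Irf8, a factor of myeloid cells, had readings under 6 log2 and ratios of -0.43, -0.24 and -0.22. Foxf1 read 5.31 on the lung-recovered and 5.74 on the parental array, and Foxl1 read 5.01 on the lung-recovered and 5.25 on the parental array. Cbfa2t3, the other gene below 0, read 7.20 on the lung-recovered and 7.21 on the parental array.

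Cyba stood out among the 6 measured transporters, channels and receptors, of which 4 had ratios above 0. It encodes the membrane subunit shared by several NADPH oxidases and read 11.23 on the lung-recovered and 9.11 on the parental array, 4.35-fold higher by its single probe set. Kcnk1, a potassium leak channel, read 11.76 on the lung-recovered and 10.93 on the parental array, with ratios of 0.83 and 0.84 by its probe sets. The mechanically gated channel gene Piezo1 read 9.30 on the lung-recovered and 8.43 on the parental array. Nrp1, a co-receptor for semaphorins and vascular growth factor, read 10.99 on the lung-recovered and 10.28 on the parental array. Its further probe sets gave ratios of 0.98, 0.83 and, for a dim one, -0.25. Slc7a5, the large neutral amino acid transporter gene, read 10.90 on the lung-recovered and 10.93 on the parental array, so a strongly detected gene of the proximal part of the stretch showed no visible difference.

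The list of metabolic enzymes also held the angiotensinogen gene Agt and the calpain gene Capn9, which are not metabolic enzymes. It included the lowest ratio of the stretch and 1 past 2-fold (9.57% of all members, 4.42% of all measured genes). Of 6 measured, 4 had ratios above 0 (76.6% of all members, 49.2% of all measured genes). The 2 below 0 were Agt and Capn9. The lysosomal sulfatase gene Galns read 7.52 on the lung-recovered and 6.35 on the parental array, 2.25-fold higher. Aprt, of purine salvage, read 11.69 on the lung-recovered and 11.13 on the parental array, and Gnpat, the first enzyme of plasmalogen synthesis, read 9.49 on the lung-recovered and 8.81 on the parental array. Agt, which encodes angiotensinogen, had the lowest ratio of all members, at 5.79 on the lung-recovered and 6.44 on the parental array, a log2 ratio of -0.65, or -0.29 with the floor at the 60th percentile. Capn9, a digestive tract calpain, was at the floor on the lung-recovered array (4.59) and at 5.14 on the parental array.

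Among genes of the cytoskeleton, polarity and adhesion, 4 of 7 measured had ratios above 0, and these were the 4 with the highest readings. Pard3, a polarity scaffold, read 8.99 on the lung-recovered and 8.25 on the parental array, with ratios from 0.74 to 1.05 by 4 probe sets. Gas8, of motile cilia, read 8.67 on the lung-recovered and 7.79 on the parental array. Sipa1l2 (4.92 on the lung-recovered, 5.33 on the parental array), Crispld2 (a ratio of -0.25, or -0.06 by the median over its probe sets) and the cadherin gene Cdh15 (a ratio of -0.11) had readings under 6.5 log2 on both arrays. Of 5 measured genes of ubiquitin transfer and oxygen sensing, the F-box gene Fbxo31, Klhdc4 and the RING finger gene Rnf166 had ratios of 0.78, 0.74 and 0.70, and Trim67 was near the floor. Rnf166, with the highest mean reading of the list, was at 9.93 on the lung-recovered and 9.23 on the parental array. Egln1, the prolyl hydroxylase that marks hypoxia-inducible factor, read 9.48 on the lung-recovered and 9.56 on the parental array by 1 probe set, and 8.97 on the lung-recovered and 8.40 on the parental array by its other.

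The remaining 28 measured members had a median ratio of 0.16, with 18 above 0 and 10 below. At 2-fold or more, 4 were higher, against 9.57% of all members and 4.42% of all measured genes. The 4 past 2-fold were 2310022B05Rik at 10.32 on the lung-recovered and 8.56 on the parental array, Gm31718 at 7.53 lung-recovered and 5.86 parental, 1190005I06Rik at 6.81 lung-recovered and 5.36 parental, and Fam89a at 6.13 lung-recovered and 4.36 parental. The last was at the floor on the parental array and so at least 2.71-fold higher. Ttc13, with the highest reading of this group, was at 10.65 on the lung-recovered and 10.13 on the parental array. At the other end were the copine gene Cpne7 (5.08 on the lung-recovered, 5.62 on the parental array) and 1700016A09Rik (5.38 lung-recovered, 5.76 parental). Of the other ratios below 0 in this group, 1700018B08Rik read 5.55 on the lung-recovered and 5.76 on the parental array, the sulfotransferase gene Sult5a1 4.88 lung-recovered and 5.07 parental, and the skeletal muscle actin gene Acta1 5.62 lung-recovered and 5.79 parental. The rest were Pcnx2 (-0.29), at the floor on the lung-recovered array, C230057M02Rik (-0.13), Gm19600 (-0.13, at 6.61 on the lung-recovered and 6.74 on the parental array), 4732419C18Rik (-0.09) and the strongly detected Coa6 given above.

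Some strongly detected members had ratios near 0. Of the 60 members of 7 log2 or more, 9 had ratios between -0.15 and 0.15, limits chosen after the values were seen. That was 15%, against 30.1% of all genes of that signal. They were Zdhhc7, Cox4i1, Slc7a5, Cbfa2t3, Def8, Abcb10, Taf5l, Egln1 and Coa6. They lay at separate places along the stretch, and only Abcb10 and Taf5l were next to each other among the members of that signal. For Egln1 the second probe set had a ratio of 0.57.

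The floor set which genes counted. Of the 94 members, 87 were above it on both arrays, 4 (Pabpn1l, Spata2l, Fam89a and Trim67) on the lung-recovered array only, and 3 (Irf8, Capn9 and Pcnx2) on the parental array only. A member above the floor on the lung-recovered array only had to have a ratio above what the floors alone give. Just inside the limit, Pabpn1l read 4.77 on the lung-recovered and 4.69 on the parental array. Just outside it, the melanocortin receptor gene Mc1r read 4.43 on the lung-recovered and 4.56 on the parental array. The 13 genes at the floor on both arrays, at most 4.43 on the lung-recovered and 4.56 on the parental array, were Mc1r, Fendrr, Foxc2, Car5a, Dpep1, Spata33, Tubb3, Pgbd5, 4930566D17Rik, Map10, Map3k21, Slc35f3 and Ccdc7a.

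Along the map, the difference held to the end of the chromosome and did not begin at Crispld2. In 6 consecutive blocks of members, the median over genes of 7 log2 or more was 0.55, 0.70, 0.56, 0.67, 0.60 and 0.71 from proximal to distal. The first members in map order were Crispld2, a secreted protein gene, at 6.17 on the lung-recovered and 6.42 on the parental array, then Zdhhc7, 6430548M08Rik (6.76 lung-recovered, 6.00 parental), the chromatin-associated gene Gse1 (8.02 lung-recovered, 7.32 parental) and 1700016A09Rik. The most distal members were Pard3, Nrp1 and 2610044O15Rik8, the last at 7.55 on the lung-recovered and 6.74 on the parental array. On the proximal side of Crispld2 the nearest measured genes were Usp10, a deubiquitinase gene, at 9.87 on the lung-recovered and 9.35 on the parental array, Klhl36 (5.18 lung-recovered, 5.14 parental), the actin-binding gene Cotl1 (7.87 lung-recovered, 7.94 parental), Meak7 (8.51 lung-recovered, 7.64 parental) and the calcium pump gene Atp2c2 (7.82 lung-recovered, 7.97 parental). Values on both sides of the limit thus overlapped.

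**Figure D4:**
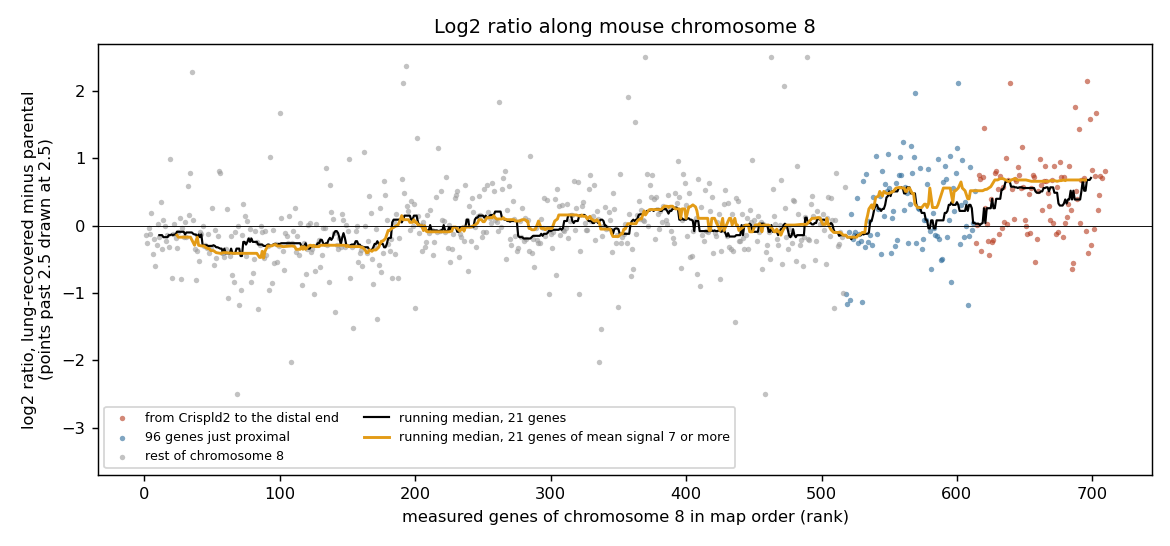
Log2 ratio, lung-recovered minus parental (y axis), of the measured genes of chromosome 8 in map order (x axis, rank). Red points are the distal genes, blue the 96 genes just proximal and grey the rest, and the lines are running medians over 21 genes, black for all genes and orange for genes of mean signal 7 log2 or more. The orange line is between 0.52 and 0.70 across the distal genes as far as Egln1, where its last full window is centred. Its rise starts among the blue points.

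The 96 measured genes just proximal of Crispld2 had a median ratio of 0.18, so the distal median exceeded theirs by 0.36. Of these 96, 56 had a ratio above 0, or 58.3%, against 49.2% of all measured genes. At 2-fold or more, 10 were higher, or 10.4% (background 4.42%), and 5 lower, or 5.21% (background 2.55%). The share of distal members at least 2-fold higher, 9.57%, was thus no larger than that of their proximal neighbours. Over their 68 genes of 7 log2 or more the median was 0.32, with 47 above 0, or 69.1%, against 56.0% of all genes of that signal. In 6 blocks of 16, the median of these better-detected genes was -0.14 from Slc7a6 to Terf2, then 0.37 from Cyb5b to Ap1g1, 0.56 from Phlpp2 to Pdpr, 0.27, 0.61 and 0.35. The running median over 21 genes of 7 log2 or more was last below 0.3 at Mon1b, 29 measured genes before Crispld2, and last below 0.5 at Atp2c2, 5 genes before it. From Crispld2 to Egln1, where the last full window is centred, it stayed between 0.52 and 0.70. The 2 genes that the rule leaves out are counted in the windows. Over all signal levels the running median ranged from 0.01 to 0.71 in the distal genes as far as Pcnx2, the centre of its last full window. The lowest value was at Gse1, where the window took in Irf8, Foxf1, Foxl1 and other dim genes. On the rest of chromosome 8, the median of 349 genes of that signal was -0.07, and 44.1% were above 0.

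The same number of most distal measured genes on each of the other 19 chromosomes gave medians from -0.08 on chromosome 4 to 0.26 on chromosome 12. After chromosome 12 the next was chromosome 3, at 0.13. Over all measured genes of the chromosome, the median was 0.27 for chromosome 12 and 0.00 for chromosome 8. The end of chromosome 8 was picked on its ratio, while the other ends were taken by position. For genes of 7 log2 or more, the median was 0.68 at the end of chromosome 8, 0.45 for chromosome 12 and 0.21 for chromosome 3, and the lowest was -0.06 for chromosome 6.

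**Figure D5:**
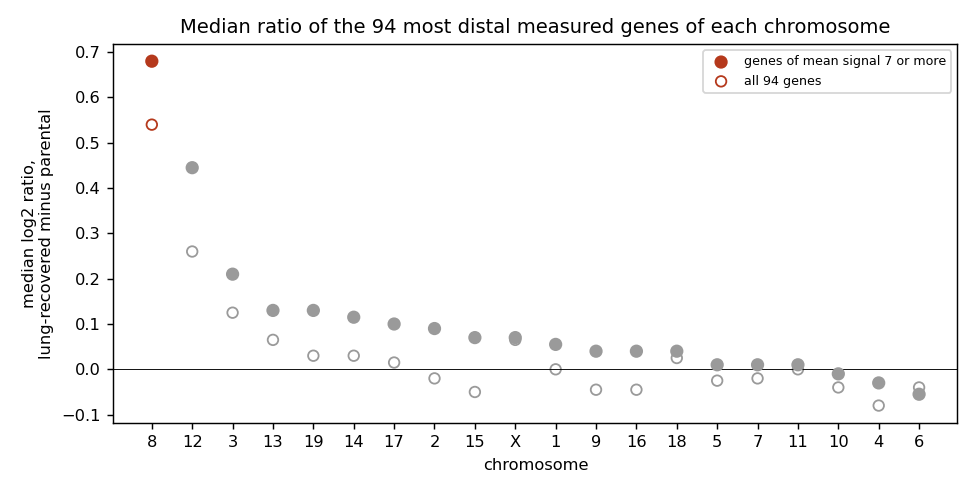
Median log2 ratio, lung-recovered minus parental (y axis), of the 94 most distal measured genes of each chromosome (x axis), as open circles, and of those with a mean signal of 7 log2 or more, as filled circles. Chromosome 8 (red) is at 0.54 and 0.68, and the other chromosomes (grey) follow from the highest to the lowest filled circle.

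The promoter windows of the members were described by their composition. RefSeq windows of 250 bases before to 50 after a gene's start, on GRCm38.p6, were found for 72 of the 94 members, 86 windows in all. Members had to be measured, and windows differ with signal: those of members of 7 log2 or more had a median of 31 CG dinucleotides and those of dimmer members 9, and over measured genes outside the stretch the medians were 22 and 11. Members of 7 log2 or more were therefore set beside the 6787 genes of that signal outside the stretch, a comparison chosen after the values were seen. The median GC content was 65.7% in the 59 windows of such members and 61.3% in the 8705 windows outside the stretch. The letters GGGCGG, on either strand, stood in 78.0% of those member windows and 65.6% of those outside, against 35.7% of all 32851 windows in the table. TATAAA stood in 5.08% of the member windows and 6.79% of those outside (13.6% of all), CCAAT in 25.4% of the member windows and 37.9% outside (37.4% of all), and CACGTG in 8.47% of the member windows and 10.8% outside (7.15% of all). Members of 7 log2 or more were also split at a ratio of 0.4. GGGCGG stood in 37 of 46 windows (80.4%) from 40 genes at or above it. It stood in 9 of 13 windows (69.2%) from 10 genes below it. With so few windows below the limit, a link with the ratio was not tested. These letters are a description of the windows, and a match is not a shown binding site.

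There were 5 pairs of members on opposite strands whose starts faced away from each other within 1000 bases. The ratios within a pair were 0.68 and 0.68 for 2810004N23Rik and Gnpat, 0.70 and 0.66 for Rnf166 and Ctu2, 0.52 and 0.39 for Ttc13 and Arv1, 0.56 and 0.75 for Ankrd11 and 2810013P06Rik, and 0.13 and 0.33 for Taf5l and Urb2. The pair with starts 4 bases apart, 2810004N23Rik (9.34 on the lung-recovered, 8.66 on the parental array) and Gnpat, thus had equal ratios. Their windows share 103 bases, read from opposite strands. They are printed 5′ to 3′, followed by those of Cyba, of the strongly detected but near-equal Egln1 and of Agt, the member with the lowest ratio, which show the range of promoter composition among the members. Capitals mark the letters TATAAA, the box CCAAT, the letters GGGCGG and the box CACGTG, on either strand, and where 2 matches overlap the capitals run together.
Gnpat, chr8:124862783-124863082, plus strand: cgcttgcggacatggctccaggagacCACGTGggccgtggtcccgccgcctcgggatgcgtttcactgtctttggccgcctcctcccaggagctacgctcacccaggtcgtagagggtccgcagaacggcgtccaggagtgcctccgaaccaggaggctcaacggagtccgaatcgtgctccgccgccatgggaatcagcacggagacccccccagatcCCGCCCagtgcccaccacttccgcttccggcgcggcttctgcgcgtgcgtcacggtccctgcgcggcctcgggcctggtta
2810004N23Rik, chr8:124862980-124863279, minus strand: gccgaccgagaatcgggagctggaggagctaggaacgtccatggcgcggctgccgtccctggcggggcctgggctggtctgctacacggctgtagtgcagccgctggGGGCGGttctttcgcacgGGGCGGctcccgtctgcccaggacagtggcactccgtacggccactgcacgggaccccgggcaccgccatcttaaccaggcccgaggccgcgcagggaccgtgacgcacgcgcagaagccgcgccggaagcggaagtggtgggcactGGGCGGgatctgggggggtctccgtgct
Cyba, chr8:122432891-122433190, minus strand: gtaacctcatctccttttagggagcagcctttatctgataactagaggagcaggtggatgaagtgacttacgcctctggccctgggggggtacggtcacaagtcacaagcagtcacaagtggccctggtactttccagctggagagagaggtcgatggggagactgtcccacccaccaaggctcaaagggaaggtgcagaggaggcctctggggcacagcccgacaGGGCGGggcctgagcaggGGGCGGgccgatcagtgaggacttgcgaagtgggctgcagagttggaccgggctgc
Egln1, chr8:124949205-124949504, minus strand: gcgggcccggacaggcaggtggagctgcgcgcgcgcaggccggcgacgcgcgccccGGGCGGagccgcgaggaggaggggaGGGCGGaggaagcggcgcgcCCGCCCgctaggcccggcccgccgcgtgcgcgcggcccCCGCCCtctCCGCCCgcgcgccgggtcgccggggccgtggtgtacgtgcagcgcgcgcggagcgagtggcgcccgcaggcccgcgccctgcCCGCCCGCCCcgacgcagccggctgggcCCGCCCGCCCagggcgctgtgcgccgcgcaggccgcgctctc
Agt, chr8:124569657-124569956, minus strand: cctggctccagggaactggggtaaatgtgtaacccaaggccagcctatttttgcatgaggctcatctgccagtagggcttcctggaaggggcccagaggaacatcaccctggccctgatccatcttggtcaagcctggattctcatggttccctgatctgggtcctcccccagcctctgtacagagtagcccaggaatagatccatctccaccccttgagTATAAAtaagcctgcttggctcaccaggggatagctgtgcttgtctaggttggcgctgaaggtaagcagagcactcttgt
The Egln1 window held 60 CG dinucleotides and the Agt window 1, against 33 in each window of the Gnpat pair and 9 in that of Cyba. Of these windows, that of Agt held TATAAA and that of Gnpat held CACGTG.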

How the data were processed

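Total RNA, 6 µg per array, from lung-recovered CMT-93-PM1 and parental CMT-93 cells was labelled with biotin by the Affymetrix protocol, per the labels' protocols. The deposited values are log2 signals for 45037 probe sets. The base was taken from their range, which reached 14.28 on the lung-recovered and 14.25 on the parental array. MAS5 appears in the submitters' processing notes, without saying for which step, and the scaling between arrays is not given in these sources. The values were used as deposited.

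From there, 34945 probe sets with 1 gene symbol in the platform annotation were used, 34741 of them renamed by Entrez identifier through the RefSeq table of GRCm38.p6, which also gave gene order. That build is not named for the array, so it served only for names, order and the RefSeq promoter windows. Signals were floored at the 40th percentile of each array, 4.59 log2 for the lung-recovered and 4.69 for the parental array. Each gene took its probe set of highest mean signal. Log2 ratios are lung-recovered minus parental. With 1 array per group there is no test and no p-value. The number of arrays limits the precision. Counts use 2-fold and 1.2-fold limits, and the background share is that of all 13332 measured genes.

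The members and lists were chosen with earlier results of these data known. Every member may be named. Full values are given for the 10 highest and 10 lowest ratios above both floors, bounds past 2-fold, the members and neighbours at each end, and the highest reading of each role list, except 1 that is not reported here. Of the listed symbols, Sprtn, Rpl13, Tarbp1, Slc22a31, Urah and Disc1 had no probe set of their own in the stretch and are not analysed here. The steps were tested on simulated arrays with a known shift. Python 3.11.15, pandas 2.3.3 and statsmodels 0.14.6 were used. Alternatives covered scaling, floors, probe set choice and the number of proximal genes.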

Additional observations from a re-analysis of the deposited data

How the results depend on the processing

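With 1 array per group, no alternative gives a test, and no array can be left out. No paired analysis was possible because each group has 1 array. The distal median ratio stayed between 0.46 and 0.68 under the 10 alternatives for it, from the median over probe sets to the genes of 7 log2 or more, which were chosen after seeing the data. The distal median exceeded the proximal one under all 12 alternatives for that difference, by 0.30 to 0.60. The highest value, 0.60, came from setting all proximal genes of chromosome 8 in place of the nearest 96. Members with a ratio below 0 numbered 7 of 71 under a 60th percentile floor and 4 of 60 at 7 log2 or more, where fewer genes were counted, against 22 of 94. At least 2-fold higher were 4 of the 60, against 9 of 94. Under the other alternatives these counts stayed within 1.5 times, and 0 members were at least 2-fold lower under any alternative run. Of single members, 5 of 71 moved by more than the median SD between probe sets under a 60th percentile floor, 13 of 94 with the median over probe sets and 0 of 94 with lowess. Among these, Ntpcr had a ratio of 0.86 by the median over probe sets, and under the 60th percentile floor Tsnax was at 1.53, Gm31718 at 1.35 and 1190005I06Rik at 0.63.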

Other observations

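The opposite end of chromosome 8 lay on the other side of 0. When its measured genes were cut into 10 consecutive parts, after their values were seen, the genes of 7 log2 or more had a median log2 ratio, lung-recovered minus parental, of -0.31 in the first part, from Insr, with 8 of 39 above 0. In the second part, which ends at Gsr, the median was -0.30, with 6 of 40 above 0. The third part was at -0.19, and the parts from the fourth to the eighth lay between -0.02 and 0.22. The ninth part was at 0.54, with 36 of 45 above 0, and the tenth at 0.68, with 42 of 45 above 0. Over all genes of 7 log2 or more on the array, the median was 0.06 and 56.0% were above 0.

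Among the proximal genes near the stretch, Osgin1, which is known to respond to oxidative stress, read 11.49 log2 on the lung-recovered and 9.37 on the parental array, 4.35-fold higher, the same ratio as Cyba. Mlkl, the executor of necroptosis, was 3.92-fold higher. Wfdc1, at 7.62 on the lung-recovered and 8.80 on the parental array, was 2.27-fold lower. These genes were chosen after their values were seen.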
